A study of Mus musculus with 17 samples.

Results

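The hnRNP H/F family and its relative Grsf1 were followed across the cortex of mice that lack Hnrnph2 or carry a substitution in its product. The family was taken as the rows for Hnrnph2, Hnrnph1, Hnrnph3, Hnrnpf and Grsf1, which were 5 of the 55453 gene symbols measured. Each symbol stood on 1 row, and 0 further rows had a name beginning with Hnrnph, Hnrnpf or Grsf1. All 5 genes were above the filter on low values, a mean level of 1 over the samples in TPM (transcripts per 1000000).

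Bulk cortex came from 17 male C57BL/6J mice in 6 groups. The KO group (3 mice, labelled hemizygous Hnrnph2 KO) and the R206W group (3 mice, hemizygous Hnrnph2 R206W) were taken at 8 weeks, each beside 3 wild-type littermates of its own line (KO Control and R206W Control). The P209L group (3 mice, hemizygous Hnrnph2 P209L) was taken at 3 weeks beside wild-type littermates, of which 2 were analysed here. Hnrnph2 lies on the X chromosome, so a hemizygous male has no other copy. According to the study's methods, the KO allele is an indel that shifts the reading frame and brings in a premature stop codon, while R206W and P209L change a residue of the nuclear localization signal. The P209L line was the only one at 3 weeks, so its age cannot be told apart from its line.

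Proteins of the hnRNP H/F family bind runs of G in pre-mRNA through RNA recognition motifs, and through them influence exon inclusion, polyadenylation and RNA folding into G-quadruplexes. Hnrnph1 and Hnrnph2 encode the H and H′ proteins, Hnrnpf the F protein, and Hnrnph3 a shorter member that lacks the N-terminal RNA recognition motif. Grsf1 encodes a related G-rich sequence factor best known for its place in mitochondrial RNA granules. Proteins H1, H2 and F enter the nucleus through a proline-tyrosine nuclear localization signal (PY-NLS), a stretch read by the import receptor transportin. Hnrnph1, an autosomal gene, is the closest paralog of Hnrnph2. The study asked whether Hnrnph1 RNA is raised where Hnrnph2 is lost and where Hnrnph2 is only altered. By droplet digital RT-PCR of adult cortex, the study reported significantly raised Hnrnph1 mRNA in KO males, and not in males of either knockin line. It also reported more hnRNPH1 protein in KO males, and raised HNRNPH1 RNA in human cells depleted of HNRNPH2 or lacking it. Those measures differ from the test over all genes used here.

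The stretch that both substitutions hit is shown first, since both knockin alleles change it. Below are the reference coding sequences of the wild-type genes around the codons that R206W and P209L change in Hnrnph2 (GENCODE transcripts, GRCm38), with these 2 codons, or those aligned to them, in capitals.
Hnrnph2 (chrX:134605505-134605558, plus strand): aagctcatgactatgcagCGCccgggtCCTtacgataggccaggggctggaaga
Hnrnph1 (chr11:50382598-50382651, plus strand): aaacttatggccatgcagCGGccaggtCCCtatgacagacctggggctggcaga
Hnrnpf (chr6:117924354-117924407, plus strand): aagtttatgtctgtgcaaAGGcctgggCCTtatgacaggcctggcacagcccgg
Hnrnph3 (chr10:63018114-63018164, minus strand): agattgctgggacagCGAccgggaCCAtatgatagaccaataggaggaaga
In Hnrnph2 these were codons 200 to 217, with the codon of R206W at chrX:134605523-134605525 and that of P209L at chrX:134605532-134605534. All 4 genes had an arginine codon in the place of the former, each with a different spelling, and a proline codon in that of the latter. Of the 54 bases, 42 were the same in Hnrnph1 as in Hnrnph2 and 35 in Hnrnpf. Hnrnph3 had its matching codons at 110 and 113, had no codon in the place of codon 204, and shared 33 of its 51 bases with Hnrnph2.

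Over the whole coding sequence, Hnrnph2 and Hnrnph1 had the same base at 85.9% of the positions of 449 aligned codons. The values for Hnrnph2 against Hnrnpf, Hnrnph3 and Grsf1 were 74.2%, 66.7% and 54.9% of the bases in aligned codons. The gene structures differed more than the sequences. The coding sequence of Hnrnph2 and that of Hnrnpf each lay in 1 exon, whereas it was spread over 12 exons in Hnrnph1 and 9 exons in each of Hnrnph3 and Grsf1. The genes lay on 5 chromosomes: Hnrnph2 (ENSMUSG00000045427.13) on chromosome X, Hnrnph1 (ENSMUSG00000007850.16) on 11, Hnrnph3 (ENSMUSG00000020069.16) on 10, Hnrnpf (ENSMUSG00000042079.13) on 6 and Grsf1 (ENSMUSG00000044221.14) on 5.

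Because reads are assigned by sequence, the overlap between annotated transcripts bears on what each value holds. No stretch of 50 bases was shared by transcripts of Hnrnph1 and Hnrnph2. Hnrnph2 shared 715 of its 4507 distinct 50-base stretches (15.9%) with the processed pseudogene Gm8775. Hnrnpf shared 1152 of 3128 (36.8%) with 7 processed pseudogenes, Hnrnph1 shared 8 of 6286 with Gm49168, and Hnrnph3 and Grsf1 shared 0. With 100 bases the shares were 7.59% for Hnrnph2, 31.5% for Hnrnpf and 0 for the others.

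Levels were in TPM, transcript abundances scaled for transcript length so that a sample sums to 1000000, so the number of reads behind a value is unknown. The mouse KO Control 1 stood apart. Mitochondrial genes, taken as those named mt-, took 20.1% of its TPM and 10.7% to 15.4% of that of the other mice. Here, and where mitochondrial genes were removed, rows that share their sequence, such as Gm28661 and Gm28437, were not counted. Levels of the 5 genes in KO Control 1 were 55.7% to 72.4% of their means over the other 5 controls of 8 weeks. Its median-of-ratios size factor, which follows the median gene, was 0.80, against 1.04 to 1.09 in those 5 controls. Lower levels in this mouse were thus not particular to the family. Member values in comparisons that use the KO controls are therefore also given without this mouse, as are list counts and medians for KO and for age. With 2 or 3 mice a group, p-values measure the spread between these mice. In bulk tissue, fewer cells of a type and less RNA per cell cannot be told apart.

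Hnrnph1 was the most abundant of the 5 genes, with a mean of 349 TPM over all mice, and lay above Hnrnph2 in 17 of 17 mice. Hnrnph2 had a mean of 103 TPM, Grsf1 72.5 TPM, Hnrnpf 51.1 TPM and Hnrnph3 49.4 TPM. These levels ranked high in cortex: from 79.5% (Hnrnph3) to 98.1% (Hnrnph1) of the 16265 genes tested had a lower mean. Hnrnph2 was above Grsf1 in all 14 mice that carried no KO allele and below it in the 3 KO mice. Grsf1 was above Hnrnpf and above Hnrnph3 in 17 of 17 mice. The order of the lowest pair turned with age: Hnrnpf was above Hnrnph3 in 11 of 12 mice at 8 weeks, KO Control 1 being the exception, and in 0 of 5 mice at 3 weeks.

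**Figure D1:**
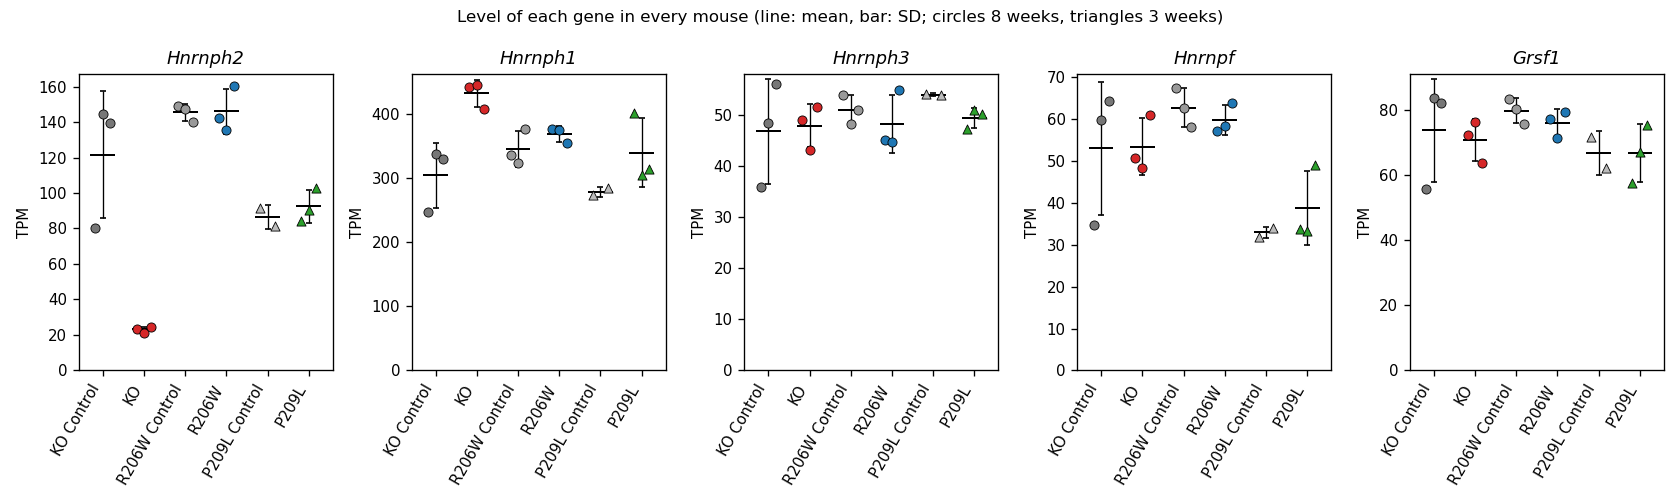
TPM (linear axis from 0) of each of the 5 genes in every mouse, by group, with circles for 8 weeks and triangles for 3 weeks, a line at the group mean and a bar of 1 SD. The 3 KO mice stand alone at the bottom for Hnrnph2 (21.3 to 24.4 TPM) and at the top for Hnrnph1 (408 to 445 TPM), while Hnrnpf is lowest in both P209L controls, 2 of the 3 P209L mice and KO Control 1.

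The RNA of Hnrnph2 was compared between each mutant group and its littermates to see how much of the transcript each allele leaves. It fell in KO cortex and was near the control level with either substitution. In the KO controls it was at 80.5, 144.7 and 139.7 TPM, and in the KO mice at 23.5, 21.3 and 24.4 TPM. The highest KO mouse was below the lowest control. The KO mean of 23.1 ± 1.59 TPM (SD, n = 3) was 19.0% of the control mean, and the log2 difference of TPM + 1 was -2.30 (95% interval -2.67 to -1.94, limma, Benjamini-Hochberg adjusted p = 8.64e-06). This was the only gene to pass in this comparison, which called 0.00615% of 16265 genes, and 6.25% of genes had groups that did not overlap. Without KO Control 1 the difference was -2.58, and 0.0307% of genes were called. In a fit of the KO line's own 6 mice the size was the same and the adjusted p = 0.0828 did not pass.

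The pseudogene that shares sequence with Hnrnph2, and the neighbours of the gene, were read beside it. The pseudogene Gm8775 was at 0.48, 1.13 and 0.90 TPM in the KO controls and at 0.14, 0.37 and 0.28 TPM in KO. Its values were thus lower in KO as well, and it was below the filter and was not tested. It held 0.592% to 1.71% of the sum of the pair over all mice, and with its TPM added to Hnrnph2 the KO difference was -2.30. The X-linked neighbours upstream, Rpl36a (a ribosomal protein) and Gla (alpha-galactosidase), had log2 differences of -0.063 and 0.0069 in KO, and of 0.20 and -0.088 without KO Control 1, and did not pass by limma.

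In R206W cortex Hnrnph2 was at 142, 135 and 160.4 TPM, against 149, 147 and 140.2 TPM in its controls. These values overlapped, with a log2 difference of 0.0023 and a 95% interval of -0.36 to 0.36. In P209L cortex it was at 84.5, 90.3 and 103 TPM against 91.4 and 81.6 TPM. Here too the groups overlapped, with a difference of 0.093 (95% interval -0.31 to 0.50). In these 2 comparisons limma called 0.0369% and 0.0984% of all genes and 0 of the 5 members. The KO difference was lower than the R206W difference by 2.31 on the log2 scale (limma, adjusted p = 0.00106) and lower than the P209L difference by 2.40 (adjusted p = 0.000465). With KO Control 1 left out, these values were -2.58 (adjusted p = 1.35e-07) and -2.67 (adjusted p = 1.73e-07). In the fit on all mice these contrasts called 0.0307% and 0.0492% of genes, and Hnrnph2 alone among the members. Between P209L and R206W the difference of the effects was 0.091 (95% interval -0.45 to 0.63), and 0% of genes were called.

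**Figure D2:**
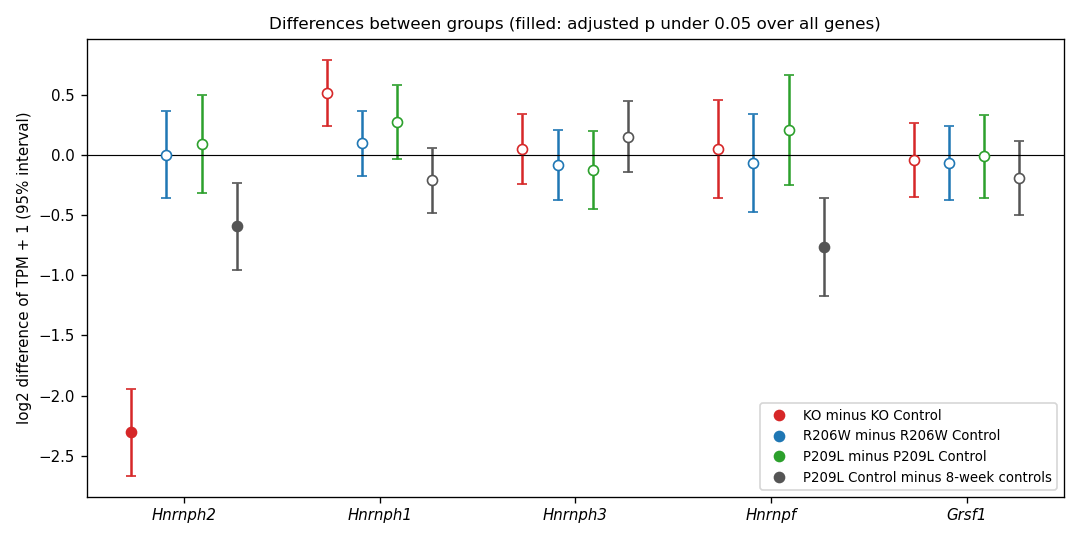
Log2 difference of TPM + 1 for each gene in the 3 mutant comparisons and between 3-week and 8-week controls, with 95% intervals from limma and filled points for an adjusted p under 0.05 over all genes. Filled points are Hnrnph2 in KO (-2.30) and Hnrnph2 (-0.59) and Hnrnpf (-0.76) at 3 weeks against 8 weeks; the intervals of all other members, save that of Hnrnph1 in KO, include 0.

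Hnrnph1, the paralog, was higher in every KO mouse than in any KO control, but did not pass the test over all genes. It was at 246, 337 and 329 TPM in the KO controls and at 443, 445 and 408 TPM in KO, where groups did not overlap for 6.25% of all genes. The KO mice were also above the other 11 mice of the study, of which P209L 1 (401 TPM) came nearest. The KO mean was 142% of the control mean, with a log2 difference of 0.52 (SE 0.128, 95% interval 0.24 to 0.79). Its unadjusted p = 0.00102 by limma ranked 20 among the 16265 genes, and the adjusted p = 0.806. The exact two-sided permutation test gave p = 0.1, the smallest that 3 mice against 3 allow. Without KO Control 1 the difference was 0.37 (adjusted p = 0.406), and over the 16 alternatives tried it lay between 0.37 and 0.60. It passed in 1 of them, where limma's sample weights gave KO Control 1 a weight of 0.0818 and the difference was 0.40 (adjusted p = 0.00937).

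With neither substitution did Hnrnph1 pass. In R206W it was at 377, 375 and 355 TPM against 336, 323 and 377 TPM, values that overlapped. The difference was 0.097 (95% interval -0.18 to 0.37, limma adjusted p = 1), in a comparison in which 16.2% of genes had groups that did not overlap. In P209L it was at 401, 305 and 313 TPM against 273 and 284 TPM. All P209L mice were above both controls, in a comparison in which groups did not overlap for 24.9% of genes. The difference of 0.28 had a 95% interval of -0.03 to 0.58 and an adjusted p = 0.726, and it was 0.15 without P209L 1. The KO difference exceeded that of R206W by 0.42 (95% interval 0.03 to 0.80, limma unadjusted p = 0.0347, adjusted p = 1), and by 0.27 without KO Control 1 (unadjusted p = 0.0757). It exceeded that of P209L by 0.24 (95% interval -0.17 to 0.65), and by 0.097 without KO Control 1. None of these differences between lines passed the adjusted threshold.

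**Figure D3:**
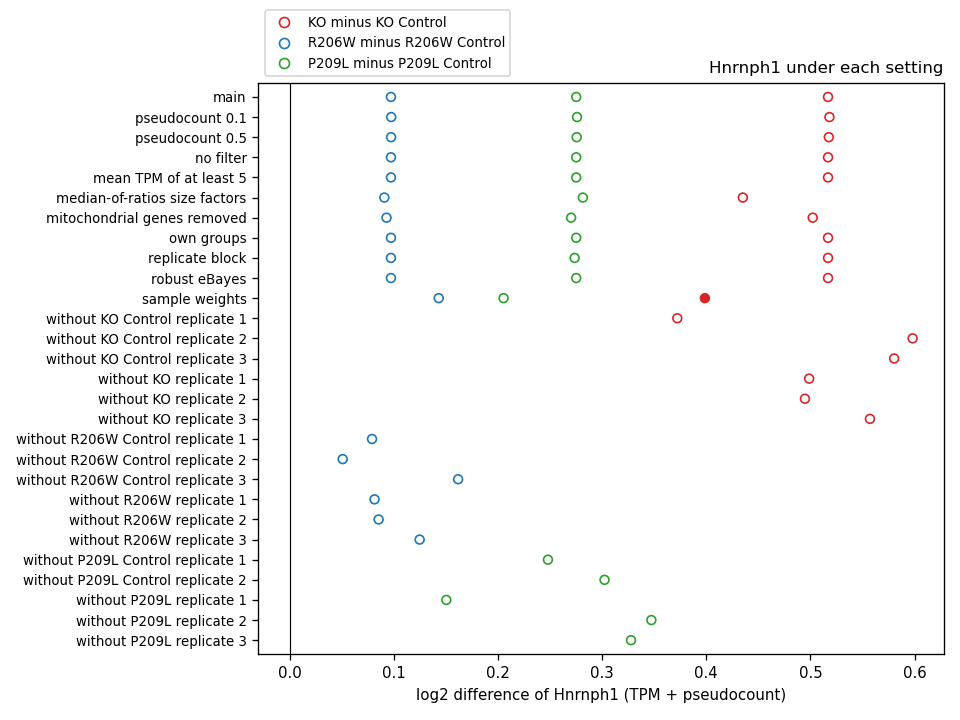
Log2 difference of Hnrnph1 in KO (red), R206W (blue) and P209L (green) under the main fit, each alternative and each fit without 1 mouse, filled where the adjusted p was under 0.05. KO points lie between 0.37 and 0.60, with 1 filled at 0.40 for sample weights; R206W points lie between 0.051 and 0.16 and P209L points between 0.15 and 0.35, all open.

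The balance between the paralogs set the KO mice apart from all others. Hnrnph2 is part of the ratio and of the shares below, so its fall in KO moves both by itself. Neither is a separate measure of Hnrnph1. The ratio of Hnrnph1 to Hnrnph2 was 3.06, 2.33 and 2.36 in the KO controls and 18.8, 20.9 and 16.7 in KO. It was 2.20 to 2.69 in the R206W controls, 2.21 to 2.77 in R206W, 2.99 and 3.48 in the P209L controls and 3.05 to 4.75 in P209L. The ratio in the R206W and P209L mice overlapped that of their littermates. Of the summed TPM of Hnrnph1, Hnrnph2, Hnrnph3 and Hnrnpf, Hnrnph2 made up 20.2% to 24.5% in the KO controls and 3.81% to 4.47% in KO. The part of Hnrnph1 was 55.8% to 62.0% in these controls and 74.9% to 79.7% in KO.

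The summed level of these 4 genes overlapped between KO mice and controls. It was 398, 590.4 and 589 TPM in the KO controls and 566, 558 and 545 TPM in KO. The KO mean of 556 ± 10.5 TPM (SD, n = 3) was 106% of the control mean, 102% after division by median-of-ratios size factors, and 94.3% without KO Control 1. All KO mice thus lay above KO Control 1 and below KO Control 2 and KO Control 3. The R206W controls had a sum of 604 ± 22.6 TPM and the R206W mice one of 623 ± 10.4 TPM (SD, n = 3 in both), and P209L had 521 ± 43.7 TPM (SD, n = 3) against 451 and 453 TPM. The 3 P209L mice, at 567, 480 and 515 TPM, were above both controls, led by the Hnrnph1 of P209L 1. In this comparison groups did not overlap for 24.9% of single genes.

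**Figure D4:**
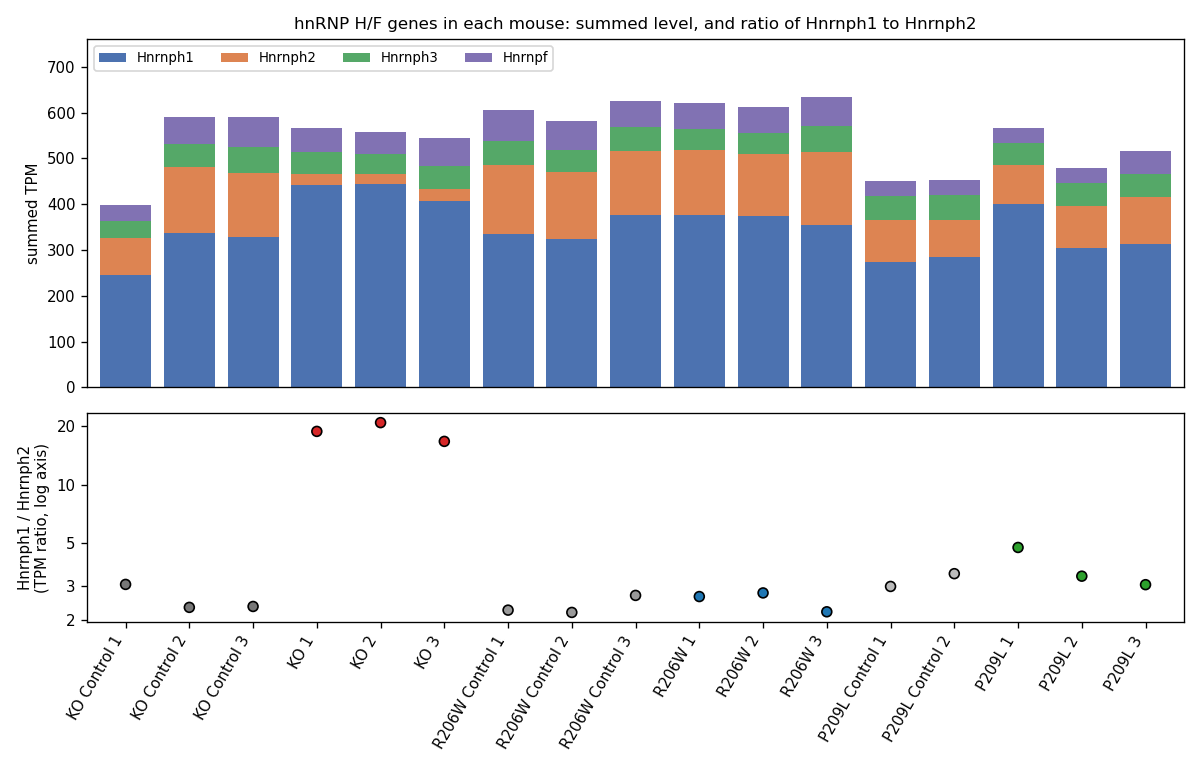
Top: stacked TPM of Hnrnph1, Hnrnph2, Hnrnph3 and Hnrnpf in each mouse. Bottom: the ratio of Hnrnph1 to Hnrnph2 in TPM on a log axis, which is 16.7 to 20.9 in the 3 KO mice and 2.20 to 4.75 in all others, while the summed level of the KO mice (545 to 566 TPM) lies between that of KO Control 1 and those of the other KO controls.

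Hnrnph3 varied little. It was at 35.9, 48.6 and 56.2 TPM in the KO controls and 49.1, 43.3 and 51.6 TPM in KO, and at 54.1, 48.3 and 51.1 TPM in the R206W controls and 45.2, 44.8 and 54.9 TPM in R206W. Both pairs of groups overlapped, with log2 differences of 0.053 (95% interval -0.24 to 0.35) and -0.084 (-0.38 to 0.21). The sign of the first turned without KO Control 1, to -0.12. In the P209L controls it was at 54.3 and 54.0 TPM and in P209L at 47.4, 51.1 and 50.2 TPM. The P209L mice were all below both controls by a small margin, in a comparison in which groups did not overlap for 24.9% of genes. The difference was -0.12 (95% interval -0.45 to 0.20, limma adjusted p = 0.941). The gene overlaps Rufy2 on the opposite strand over 2547 bases at its 3′ end. The library kit keeps strand, but whether strand was used in the estimation is not given in the sources used here.

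Hnrnpf values moved with KO Control 1, and the gene shares sequence with several processed pseudogenes. It was at 34.8, 59.8 and 64.5 TPM in the KO controls and 50.8, 48.5 and 61.1 TPM in KO. The KO mice lay between KO Control 1 and the highest control, with a log2 difference of 0.053 (95% interval -0.36 to 0.46) that became -0.22 without KO Control 1 (limma adjusted p = 0.604). In R206W it was at 57.2, 58.4 and 63.9 TPM against 67.4, 62.7 and 58.1 TPM, a difference of -0.067 (95% interval -0.48 to 0.34). In P209L it was at 33.9, 33.4 and 49.0 TPM against 32.0 and 33.9 TPM, a difference of 0.21 (-0.25 to 0.66) that was 0.029 without P209L 3. Groups overlapped in each of the 3 lines.

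The 7 processed pseudogenes of Hnrnpf held nearly as much TPM as the gene itself. They were picked by shared sequence after the data had been seen. Their sum was 29.8 to 57.5 TPM, which was 43.7% to 49.4% of the sum with Hnrnpf in all 17 mice. Gm7446 on chromosome 13 was the highest, at 14.2 to 29.0 TPM, and Gm11793 the lowest, at 0.04 to 0.52 TPM. How far reads of Hnrnpf were assigned to these copies was not tested, so the level of Hnrnpf alone is uncertain. With the copies added, Hnrnpf was at 61.7 to 121 TPM and lay above Hnrnph3 in 17 of 17 mice, so the turn of the order with age held for the row of Hnrnpf and not for this sum. The sum was also above Grsf1 in 15 of 17 mice, whereas Hnrnpf alone was in none. With copies added, the differences in the 3 lines were 0.046, -0.031 and 0.18, close to those of the row alone.

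**Figure D5:**
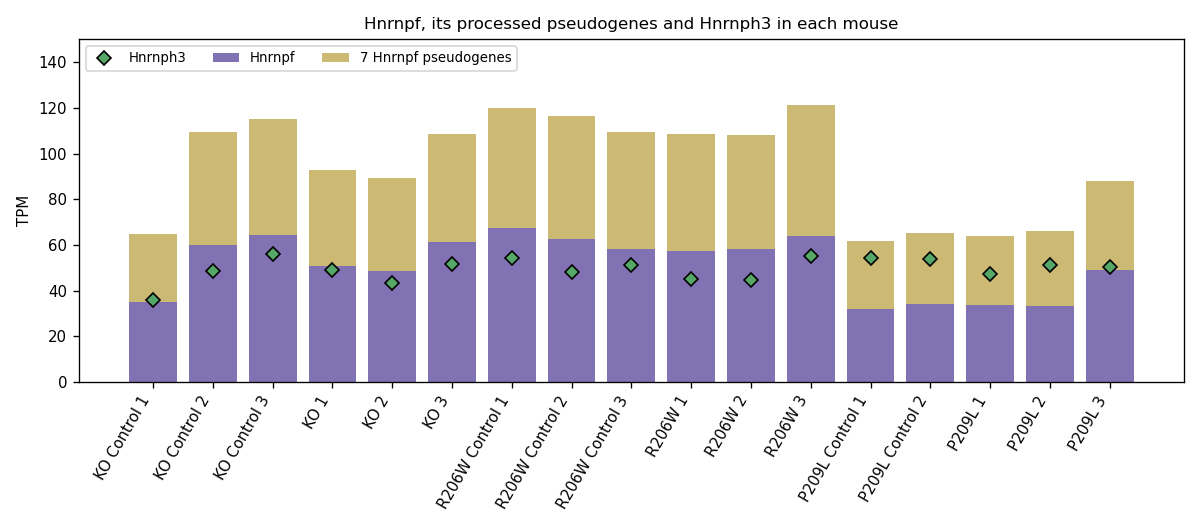
TPM of Hnrnpf (purple) with the summed TPM of its 7 processed pseudogenes stacked on it (yellow), and of Hnrnph3 (green diamonds), in each mouse. The pseudogenes take 43.7% to 49.4% of every bar; Hnrnph3 is above the purple bar in all 5 mice of 3 weeks and in KO Control 1, and below the whole bar in all mice.

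Grsf1, the mitochondrial relative, differed little between mutants and controls. It was at 55.5, 83.5 and 81.9 TPM in the KO controls and 72.1, 76.3 and 63.7 TPM in KO, and at 83.3, 80.1 and 75.7 TPM in the R206W controls and 77.2, 71.4 and 79.3 TPM in R206W. In P209L it was at 57.6, 66.9 and 75.3 TPM against 71.5 and 62.0 TPM. The groups overlapped in every line. The log2 differences were -0.038 (95% interval -0.35 to 0.27) in KO, -0.069 (-0.38 to 0.24) in R206W and -0.0081 (-0.35 to 0.34) in P209L. With KO Control 1 left out, the KO difference was -0.23 (limma unadjusted p = 0.0612, adjusted p = 0.489).

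The genes that share Grsf1's mitochondrial setting were read as lists. Of 22 genes of mitochondrial RNA granules and RNA processing, 0 passed in any line, and their median difference was 0.099 in KO, -0.012 in R206W and 0.027 in P209L, beside 0.064, 0.0096 and 0.016 over all genes. Without KO Control 1 the KO median was -0.062, beside -0.059 over all genes. The members with the smallest p were Ngrn (neugrin, 0.26, limma unadjusted p = 0.0256, adjusted p = 0.999, and 0.17 without KO Control 1) in KO, Pnpt1 (polynucleotide phosphorylase, -0.34, unadjusted p = 0.00696, adjusted p = 1) in R206W and Twnk (the Twinkle helicase, -0.32, unadjusted p = 0.0702, adjusted p = 0.725) in P209L. Of the 13 mRNAs encoded in mitochondria, 0 passed in any line, with medians of -0.028 in KO (0.18 without KO Control 1), -0.036 in R206W and -0.094 in P209L. Those with the smallest p were mt-Co3 and mt-Co2, and their values are uncertain. Of the 50-base stretches of mt-Co2, 99.5% were also in Gm28661, and 99.9% of those of mt-Co3 were in Gm28437, which were listed at 23660 to 44416 TPM and 23107 to 47047 TPM. How the reads were split between them was not tested. The row of mt-Co3 was at 12.5 ± 15.98 TPM (SD, n = 3) in KO and 76.4 ± 98.4 TPM in its controls (limma adjusted p = 0.999), and 4.19 ± 2.82 TPM in P209L (SD, n = 3) against a control mean of 108.0 TPM (adjusted p = 0.302). The R206W controls had 2.37 ± 2.00 TPM of mt-Co2 and the R206W mice 40.5 ± 35.5 TPM (SD, n = 3 in both groups, limma adjusted p = 1).

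The P209L controls were compared with the 8-week controls to give each gene's level at the 2 ages, with line and age not separable. Hnrnph2 and Hnrnpf were lower at 3 weeks, and the other members did not pass. Hnrnpf was at 32.0 and 33.9 TPM at 3 weeks and at 34.8 to 67.4 TPM (median 61.3 TPM) in the 6 controls of 8 weeks, so that the ages did not overlap. Its mean at 3 weeks was 56.9% of that at 8 weeks, with a log2 difference of -0.76 (SE 0.193, limma adjusted p = 0.00672). The exact two-sided permutation p = 0.0357 was the smallest that 2 mice against 6 allow. The background was large here: limma called 36.1% of all genes, 4039 of them lower at 3 weeks, and groups did not overlap for 38.2%. Calls for 2 of the 5 members, and separate groups for 1, are therefore near what was seen over all genes.

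Hnrnph2 was at 91.4 and 81.6 TPM at 3 weeks and at 80.5 to 149 TPM (median 142 TPM) at 8 weeks. KO Control 1 was below both 3-week controls and the other 5 controls were at 139.7 TPM or above. The difference was -0.59 (SE 0.170, limma adjusted p = 0.0139), or -0.73 without KO Control 1 (adjusted p = 3.02e-05). It did not pass when either P209L control was left out, with an adjusted p = 0.0567 and 0.140, nor did Hnrnpf without P209L Control 1 (adjusted p = 0.0711). With its copies added, the difference of Hnrnpf was -0.70 (adjusted p = 0.00688). Among its copies, Gm7446 at -0.72 (adjusted p = 0.0037) and Gm12435 at -0.52 (adjusted p = 0.00771) were also lower at 3 weeks, while Gm6430 at -0.34, Gm7803 at -0.41 and AC125059.1 at -0.20 did not pass.

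For the remaining members the age difference depended on the setting. Hnrnph1 had a log2 difference of -0.21 (limma adjusted p = 0.215) and Grsf1 one of -0.19 (adjusted p = 0.329). With KO Control 1 left out, both were lower at 3 weeks, at -0.28 (adjusted p = 0.0281 for Hnrnph1 and 0.0343 for Grsf1), in a fit that called 8181 genes, or 50.3%. With median-of-ratios size factors they were at -0.097 and -0.075. Hnrnph3 was the only member with a positive difference, 0.15 (adjusted p = 0.401), which passed at 0.27 with the size factors (adjusted p = 0.0203) and was 0.065 without KO Control 1 (adjusted p = 0.599). Each P209L control was below the lowest of the 5 controls other than KO Control 1 for Hnrnph2, Hnrnph1, Hnrnpf and Grsf1, and not for Hnrnph3. The share of all genes that did so was not counted, so this cannot be read as particular to the family. With KO Control 1 kept, groups did not overlap for 38.2% of all genes.

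The 2 groups of 8-week controls gave a measure of how wild-type cortex differs between lines. All 5 members were higher in the R206W controls than in the KO controls, by 0.14 to 0.30 on the log2 scale, and none passed. This comparison called 0% of genes, with 507 genes at an unadjusted p under 0.05 by limma, and over all genes the median difference was 0.13. Without KO Control 1 the difference was 0.032 for Hnrnph2, 0.048 for Hnrnph1 and 0.013 for Hnrnpf, and turned negative for Hnrnph3 (-0.032) and Grsf1 (-0.053), beside a median of -0.0014 over all genes.

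Genes were ranked by how closely their log2 level followed each member over the 17 mice, as the root mean square distance between profiles centred on their own means. Hnrnph2 had no near neighbour. Its spread and its distances include its drop in the KO mice, and profiles without these mice were not compared. The closest genes were Eps8l1 at 0.59, Tpbg at 0.72 and Dmkn at 0.73, beside a spread of Hnrnph2 itself of 0.94. Hnrnph1 was followed most closely by E330034L11Rik at 0.10, D230017M19Rik at 0.14 and Skp2 (an F-box protein) at 0.14, all of low abundance (2.53 to 8.99 TPM). For Hnrnpf they were Fndc3a and Ank at 0.081 and its own pseudogene Gm7446 at 0.083, beside a spread of 0.37. For Hnrnph3 they were Son (a splicing cofactor), Eif2d and Tarbp1 at 0.062 to 0.063, and for Grsf1 Rnf14, Srr (serine racemase) and Sestd1 at 0.051 to 0.055. Hnrnph3 and Grsf1 were the pair of members nearest to each other, at 0.18. This was not below their own spreads of 0.15 and 0.17, so it does not show that they vary together. All profiles share the same libraries, and KO Control 1 and the step in age are parts of each.

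Partners of the family were described by lists. Of 10 genes of the LASR complex and its Rbfox partners, 0 passed in any line. In this complex hnRNP H and others work with the Rbfox splicing factors, and Rbfox1, Rbfox2 and Rbfox3 were in the list. The median of the list in KO was 0.043, and -0.16 without KO Control 1, beside 0.064 and -0.059 over all genes. The smallest p values were those of Ilf2 at 0.15 in KO (-0.080 without KO Control 1), Hnrnpc at -0.11 in R206W and Matr3 (matrin 3) at 0.38 in P209L (limma unadjusted p = 0.0315, adjusted p = 0.603). Of 24 other hnRNP genes, of which Hnrnpm, Hnrnpc and Hnrnpul2 were also in that list, 0 passed. Their medians were 0.090 in KO (-0.12 without KO Control 1), -0.014 in R206W and 0.046 in P209L. Hnrnpll, a splicing repressor, had the smallest p in KO at -0.14 (-0.21 without KO Control 1) and in P209L at 0.38 (unadjusted p = 0.00477, adjusted p = 0.340), and Hnrnpa1 had it in R206W at -0.18. Between the ages 11 of the 24 passed and all 11 were lower at 3 weeks, in a comparison that called 36.1% of all genes, 24.8% as lower and 11.3% as higher. The median of the 24 was -0.32, beside -0.12 over all genes. With KO Control 1 left out, 17 of them were lower, with a median of -0.42 beside -0.18, and 37.4% of all genes were called lower. Among the 11 in the fit on all mice were Hnrnpd at -1.15 (limma adjusted p = 0.000127), Ptbp3 at -0.91 (adjusted p = 9.36e-05) and Hnrnpa3 at -0.76 (adjusted p = 0.000307).

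Of 9 genes of PY-NLS import and the Ran cycle, 0 passed in any line. Their KO median was 0.067, and -0.12 without KO Control 1, beside 0.064 and -0.059 over all genes. Tnpo2 (transportin 2, an import receptor) had the smallest p of the list in both knockin lines. Its level was 72.8 ± 1.65 TPM in the R206W controls and 109.9 ± 12.7 TPM in R206W (SD, n = 3 in both), a log2 difference of 0.58 (limma unadjusted p = 0.00873, adjusted p = 1). In P209L it was at 85.6 ± 17.8 TPM (SD, n = 3) against a control mean of 49.96 TPM, a difference of 0.75 (unadjusted p = 0.00346, adjusted p = 0.322). In KO the smallest p was that of Ranbp2, a nuclear pore protein, at -0.18 (-0.28 without KO Control 1). Between the ages, 4 of the 9 were lower at 3 weeks (6 without KO Control 1), beside 24.8% of all genes. The 4 in the fit on all mice were Tnpo1 at -0.72, Ran at -0.49, Rangap1 at -0.56 and Ranbp2 at -1.14.

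Nonsense-mediated decay degrades transcripts with a premature stop codon, and its factors were listed because of the KO allele. Of 15 factors 0 passed in any line. Their KO median was 0.091, and -0.12 without KO Control 1, beside 0.064 and -0.059 over all genes. The smallest p values were those of Upf3a at 0.21 in KO (limma unadjusted p = 0.0689, and 0.099 without KO Control 1), and Magoh at -0.16 in R206W and 0.27 in P209L. Between the ages 1 of the 15 was higher at 3 weeks and 4 were lower, beside 11.3% and 24.8% of all genes. Upf3a was higher at 3 weeks by 0.35, and among those lower at 3 weeks were Upf2, Smg1 and Smg8, with values of -0.54 to -0.65. Of 12 genes that bind or unwind G-quadruplex RNA, the kind of structure the family binds, 0 passed in any line. Here the KO median was 0.026, and -0.17 without KO Control 1. The smallest p values were those of Ddx17 at 0.20 in KO (0.059 without KO Control 1), Cnbp at -0.22 in R206W and Taf15 at -0.32 in P209L (limma unadjusted p = 0.0454, adjusted p = 0.654). Of these 12, 5 were lower at 3 weeks, Dhx9 most at -0.96, and Ddx17 was higher by 0.39. Of the 10 LASR and Rbfox genes 5 were lower at 3 weeks, and of the mitochondrial granule genes 2 were higher and 2 lower. Of the 13 mitochondrial mRNAs 2 were higher, mt-Co3 among them, and 3 lower. Each of these counts stands beside the same 11.3% higher and 24.8% lower over all genes. Without KO Control 1, 37.4% of all genes were called lower at 3 weeks. Beside this, 6 of 15 decay factors, 6 of 12 G-quadruplex genes and 8 of 10 LASR and Rbfox genes were lower. So were 3 of 22 granule genes and 3 of 13 mitochondrial mRNAs.

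Markers of the cell types of cortex were read beside these values. In each of the 8 marker lists every gene was tested and 0 passed in any line. The summed level of 7 excitatory neuron markers was 654 to 1113 TPM in the KO controls and 748 to 1000.3 TPM in KO, that of 6 inhibitory neuron markers 539 to 887 TPM and 722 to 959 TPM, and that of 6 astrocyte markers 1017 to 1392 TPM and 1315 to 1501 TPM. The marker list with the largest median difference in any line was that of oligodendrocytes in P209L. Its 6 markers were lower in 6 of 6 cases at an unadjusted p under 0.05 by limma, as were 2.90% of all genes (7.46% in either direction), and 0 passed adjustment, with a median of -0.84 and a sum of 2401 to 3460 TPM against 3964 to 5928 TPM. Oligodendrocyte precursor (2 genes), microglia (6), endothelial (4) and leptomeningeal fibroblast (5) lists had medians of -0.28, -0.11, -0.31 and -0.36 in P209L and of 0.25, 0.18, 0.40 and 0.26 in KO. With KO Control 1 left out, these KO medians were 0.087, 0.088, 0.047 and 0.28. For the excitatory, inhibitory, astrocyte and oligodendrocyte lists the KO medians were -0.10, 0.059, 0.23 and 0.16. Without KO Control 1 they were -0.36, -0.15, 0.095 and -0.00085. Over all genes the KO median was 0.064, and -0.059 without that mouse. Between the ages 4 of 7 excitatory, 1 of 6 inhibitory, 3 of 6 astrocyte, 3 of 6 microglia and 1 of 4 endothelial markers were lower at 3 weeks, and 4 of 6 oligodendrocyte, 1 of 2 precursor and 1 of 6 microglia markers were higher, beside 24.8% and 11.3% of all genes. Without KO Control 1 the lower markers were 6 excitatory, 3 inhibitory, 5 astrocyte, 3 microglia and 3 endothelial, and the higher ones 4 oligodendrocyte, 1 precursor and 1 microglia, beside 37.4% and 12.9%. The part of cell makeup in the levels of the 5 genes was not tested.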

How the data were processed

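RNA-seq of bulk cortex was analysed in 17 male mice. Per the labels, total RNA was made into stranded total RNA libraries (TruSeq), and the submitters' processing notes name Trim Galore, STAR 2.7.1a, GATK 4.0.4.0, RSEM and the build mm10. The annotation and read length are not given in the sources used here. The authors deposited TPM for 55573 table entries, of which 120 repeats of a symbol were summed to give 55453 symbols. Depth is unknown from TPM, so no counting interval was given.

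Genes with a mean of at least 1 TPM (16265) were fitted on log2(TPM + 1), a scale that understates changes of low genes, with limma 3.58.1 in R 4.3.3 (6 group means, eBayes with trend). P-values were two-sided and Benjamini-Hochberg adjusted over all 16265 genes, with a threshold of 0.05. The 8-week level was the average of both control groups, and an effect is a mutant group minus its own controls. The fit was tested on simulated data. Two-sided exact permutation tests of TPM were run for single members. Sequences came from GENCODE transcripts of GRCm38, and copies were genes sharing a 50-base stretch with a member.

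The genes named were the members, the 3 closest profiles of each, the gene of smallest p of each pathway list in each line where none passed, and the neighbours Rpl36a and Gla. The copies, and list genes named for age, were picked with their values in view. The members and lists were chosen with earlier results of these data known. Alternatives were other pseudocounts (0.1 and 0.5), other filters (none, or a mean of 5 TPM), rescaling by median-of-ratios size factors, removal of mitochondrial genes, fits on a comparison's own groups, a replicate block, robust eBayes, sample weights, leaving out each mouse, and, added after the data were seen, summing copies.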

Additional observations from a re-analysis of the deposited data

Results flagged for a closer look

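The effect of the KO allele on Hnrnph2 differed from that of each substitution by a test of the difference itself. The KO effect minus the R206W effect was -2.31 on the log2 scale (95% interval -2.82 to -1.79, limma, Benjamini-Hochberg adjusted p = 0.00106), and in 23 of 23 alternatives this difference passed. The KO effect minus the P209L effect was -2.40 (95% interval -2.94 to -1.85, adjusted p = 0.000465). Leaving out KO Control 1 gave -2.58 and -2.67. The latter comparison joins mice of 8 weeks and 3 weeks, each set against littermates of its own age. Every KO mouse was below every control of its line, whereas R206W and P209L mice overlapped theirs. The remaining members had no difference between lines that passed. No member had a mouse tested as an outlier within its group, since no group held more than 3 mice.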

How the results depend on the processing

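Of 761 values recomputed for 43 results, 699 kept their direction and side of the threshold (or moved by less than 1 SD). The call of Hnrnph2 in KO held under 16 of 17 alternatives, and was lost in a fit on its own groups (-2.30, adjusted p = 0.0828). The age difference of Hnrnph2 was not past the threshold in its own groups (-0.59, adjusted p = 0.0721), nor without P209L Control 1 or 2 (-0.67 and -0.51), and that of Hnrnpf not without P209L Control 1 (-0.72). In these fits the lone P209L control was assumed to vary like the other groups. Results that newly passed were Hnrnph1 in KO with sample weights (0.40), Hnrnph1 and Grsf1 with age under sample weights (-0.27 and -0.28) or without KO Control 1 (-0.28 each), and Hnrnph3 with age under median-of-ratios size factors (0.27).

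The results that changed sign were small and passed under no alternative. With median-of-ratios size factors Hnrnph3 and Hnrnpf in KO were both at -0.027, Hnrnph2 in R206W at -0.0040, Hnrnph3 and Grsf1 between control groups at -0.0011 and -0.011, and Grsf1 for the KO minus R206W effect at -0.044. With sample weights Hnrnph3 and Hnrnpf in KO were at -0.047 and -0.23, Hnrnph2 in R206W at -0.045, Grsf1 in P209L at 0.014 and between control groups at -0.052, Grsf1 and Hnrnpf for KO minus R206W at -0.099 and -0.14, and Hnrnph3 for P209L minus R206W at 0.014. With mitochondrial genes removed Hnrnph2 in R206W was at -0.0019. The causes were not tested.

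Leaving out 1 mouse at a time moved Hnrnph3 in KO from -0.12 to 0.19, Hnrnpf in KO from -0.22 to 0.22, Grsf1 in KO from -0.23 to 0.063, Hnrnph2 in R206W from -0.067 to 0.054 and Grsf1 in P209L from -0.11 to 0.093. For 3 weeks minus 8 weeks the ranges were -0.73 to -0.51 for Hnrnph2, -0.28 to -0.17 for Hnrnph1, -0.90 to -0.68 for Hnrnpf, 0.065 to 0.22 for Hnrnph3 and -0.29 to -0.086 for Grsf1. Between control groups they were -0.032 to 0.28 for Hnrnph3 and -0.053 to 0.24 for Grsf1. For KO minus R206W effects they were -0.040 to 0.28 for Hnrnph3, -0.15 to 0.28 for Hnrnpf and -0.16 to 0.13 for Grsf1, for KO minus P209L effects -0.42 to 0.024 for Hnrnpf and -0.22 to 0.072 for Grsf1, and for P209L minus R206W effects -0.090 to 0.054 for Hnrnph3 and -0.040 to 0.16 for Grsf1.

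Leaving out a mouse gave a summed H/F level of 94.3% to 113% of controls in KO, 101% to 105% in R206W and 110.1% to 119.7% in P209L, and size factors gave 102% in KO and 116% in P209L. The replicate number did not pair the samples: deviations of same-numbered mice correlated between -0.11 and 0.33, and not all pairs were above 0.1. With the replicate block Hnrnph2 in KO was at -2.30 (adjusted p = 1.49e-05) and Hnrnph1 at 0.52 (adjusted p = 0.751). Summing pseudogene copies, an alternative added after the data were seen, changed no call of Hnrnph2 or Hnrnpf. TPM carries no depth, so the precision of low values cannot be given.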
